A study of Mus musculus with 5 samples.

Results

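The kinesins are the motor proteins that walk along microtubules towards, in most cases, their plus ends, and the genes described here are every gene symbol on the array that begins with Kif followed by a digit or the letter c. By that rule 39 kinesins were measured, of 18820 named genes, and they fell into 10 mitotic kinesins, 14 transport kinesins and 15 others. A gene was represented by its brightest array row that carries 1 gene symbol, and 8 further rows of 7 kinesins are given separately. Kif20a, Kif3c and Kifc1 have rows only together with another gene's symbol and are not described.

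Livers came from adult C57BL/6 mice injected under the skin once a day on 4 days and culled on day 5. CSF1-Fc is the macrophage growth factor CSF1 of the pig joined to the Fc part of a pig antibody, which lengthens its stay in the circulation. The 3 CSF1-Fc livers were compared with 2 livers of mice given phosphate-buffered saline (PBS), each liver on 1 Affymetrix array that reads whole-liver RNA through many short probes per gene. Apart from the injected agent, the labels give the same strain, age, tissue and schedule for all 5 livers. The study used male and female mice, and sex was not part of the comparison made here.

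In a dividing cell, one set of kinesins builds the bipolar spindle, lines chromosomes up and later organises the midzone, where the cell is cut into daughters. These genes are transcribed mainly late in the cell cycle, and their transcripts are scarce in a resting tissue such as the adult liver. Another set hauls vesicles, mitochondria and other cargo through resting and dividing cells alike, and is therefore a useful yardstick within the same family.

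All values are normalized array intensities on the log2 scale, so a difference of 1 is a doubling of the intensity. A gene was called where limma's moderated test over all 35556 array rows gave a Benjamini-Hochberg adjusted p below 0.05. A mean below 5 on the log2 scale, about the median of all rows, is called dim, and such values compress real differences. The array does not allow the levels of separate genes to be ranked against each other. With 3 livers against 2, an exact permutation test on a single gene cannot go below a one-sided p of 0.1, or 0.2 if doubled. The p-values therefore rest on limma's pooling of variance over rows.

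The 5 livers' arrays correlated at 0.983 to 0.990 among CSF1-Fc livers, at 0.991 between PBS livers and at 0.960 to 0.973 across treatments. Hepatocyte markers were bright in every liver, and none of the 8 was dim on all arrays. Their summed intensity was 37298 to 41688 in CSF1-Fc livers and 46478 to 50448 in PBS livers, and 1 of the 8 (G6pc) was called lower. All 10 macrophage markers were called higher, with a summed intensity of 14615 to 15427 in CSF1-Fc livers and 3498 to 3616 in PBS livers, as were 6 of 6 Kupffer cell and 3 of 3 inflammatory monocyte markers. Of the neutrophil markers 9 of 12 were called higher, with a sum of 2372 to 3104 in CSF1-Fc livers and of 365 to 2177 in PBS livers. That sum includes Lcn2, which varied widely between livers (0.46 ± 0.95, limma adjusted p = 0.833). Over all named genes 8.34% were called higher and 3.95% lower. The part that this change in cell make-up had in the kinesin results was not tested. In whole liver, more cells of a type and more RNA per cell cannot be told apart.

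The promoters of the mitotic kinesins are shown first, since these genes moved together. RefSeq sequences of the GRCm38.p6 build, 250 bases before to 50 after the annotated start, were found for 10 of 10 mitotic, 9 of 14 transport and 12 of 15 other kinesins. Motifs were searched on both strands, and no match of one overlapped a match of the other. TTTGAA is the core of the cell cycle genes homology region, the element bound by the repressor complexes that keep late cell cycle genes silent in resting cells. At least 1 copy lay in 9 of 10 mitotic windows, in 1 of 11 transport windows and in 3 of 14 other windows, against 17.9% of all 32851 windows. CCAAT, the box bound by the factor NF-Y, lay in 6 of 10 mitotic, 4 of 11 transport and 6 of 14 other windows, against 37.4% of all. Some genes have 2 windows, and those of Kif1b overlap and hold the same CCAAT boxes. Counted by gene, CCAAT lay in 6 of 10 mitotic, 3 of 9 transport and 6 of 12 other kinesins. Both motifs together were found in 6 of 10 mitotic windows, in 0 of 11 transport windows and in 3 of 14 other windows, against 6.95% of all. In each class the annotated start of 2 windows lies inside the gene, so these windows may not be promoters. They belong to Kif14 and Kif2c, to Kif1a and Kif3a, and to Kif26a and Kif27. The TTTGAA matches of Kif14, Kif2c and Kif27 and the 1 transport match, in Kif1a, lie in such windows.

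The part of the window shown here, 85 bases from 60 before to 25 after the start, was drawn after the positions of the matches were seen, so that it holds the TTTGAA of 7 of the 10 mitotic kinesins, and its share is no result. These 7 stretches are printed 5′ to 3′ along the gene, with both motifs in capitals. On the opposite strand TTTGAA reads as TTCAAA. The CCAAT box there reads as ATTGG.
Kif11 (chr19:37376322-37376406, plus strand): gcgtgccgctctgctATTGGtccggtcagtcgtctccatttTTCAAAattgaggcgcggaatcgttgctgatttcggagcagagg
Kif15 (chr9:122951021-122951105, plus strand): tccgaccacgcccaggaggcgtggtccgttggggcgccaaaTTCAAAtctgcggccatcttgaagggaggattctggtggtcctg
Kif18b (chr11:102925100-102925184, minus strand): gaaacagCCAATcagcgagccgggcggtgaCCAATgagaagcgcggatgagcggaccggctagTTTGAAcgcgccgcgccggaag
Kif22 (chr7:127042396-127042480, minus strand): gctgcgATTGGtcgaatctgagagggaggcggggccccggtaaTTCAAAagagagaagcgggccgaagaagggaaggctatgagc
Kif4 (chrX:100626005-100626089, plus strand): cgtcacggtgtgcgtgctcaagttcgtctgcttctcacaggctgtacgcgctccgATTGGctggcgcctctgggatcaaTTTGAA
Kif23 (chr9:61946775-61946859, minus strand): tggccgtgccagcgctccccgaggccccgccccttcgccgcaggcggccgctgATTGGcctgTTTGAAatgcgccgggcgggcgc
Kif20b (chr19:34922298-34922382, plus strand): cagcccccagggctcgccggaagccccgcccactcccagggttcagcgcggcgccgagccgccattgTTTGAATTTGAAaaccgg
The first base of the copy nearest the start lay between -19, in Kif11 and Kif15, and 20, in Kif4, counted from the start. In Kif11, Kif18b, Kif22, Kif23 and Kif4 a CCAAT box preceded it, and Kif20b carries a TTTGAA pair back to back. Of the remaining mitotic kinesins, Kif18a has no TTTGAA in its window at all, and the table's starts of Kif14 and Kif2c lie inside the gene. Such a match is a description of letters, and no binding was measured in these livers. The same stretch is also printed for Kif1c and Kif1b, transport kinesins that were lower in CSF1-Fc livers. It holds neither motif, but it was drawn around the mitotic matches, so this is no contrast between the classes. Kif1b has CCAAT matches at -118 and -87, just outside the stretch, and Kif3a has one inside it, at -18.
Kif1c (chr11:70700488-70700572, plus strand): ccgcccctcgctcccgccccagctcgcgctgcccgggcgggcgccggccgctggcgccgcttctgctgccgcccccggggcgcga
Kif1b (chr4:149307709-149307793, minus strand): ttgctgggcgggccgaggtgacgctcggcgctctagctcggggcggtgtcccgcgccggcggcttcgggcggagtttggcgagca

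All 10 mitotic kinesins were higher in CSF1-Fc livers than in PBS livers, and in all 10 every CSF1-Fc liver lay above both PBS livers. The background is 8.34% of named genes called higher and 18.2% with every CSF1-Fc liver above. The log2 fold changes ran from 1.01 for Kif14 to 3.84 for Kif23, with a median of 2.30, against a median of -0.08 over all named genes. In contrast, 0 of 14 transport kinesins were called higher and 3 were called lower, where 3.95% of named genes were called lower. Their median was -0.04, which turned to 0.18 where arrays were centred on secreted liver proteins, a scaling that moved the median of all named genes to 0.14, and to 0.06 without CSF1-Fc replicate 2. The 15 other kinesins held 2 that rose, Kif21b and Kif24, and 13 that did not pass. Of all 39 kinesins that match the rule, 12 were called higher and 3 lower, with 24 not past the threshold. Over all named genes 12.3% were called in either direction. Over all array rows, named or not, 5.77% were called higher, 3.19% lower and 8.96% in either direction.

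**Figure D1:**
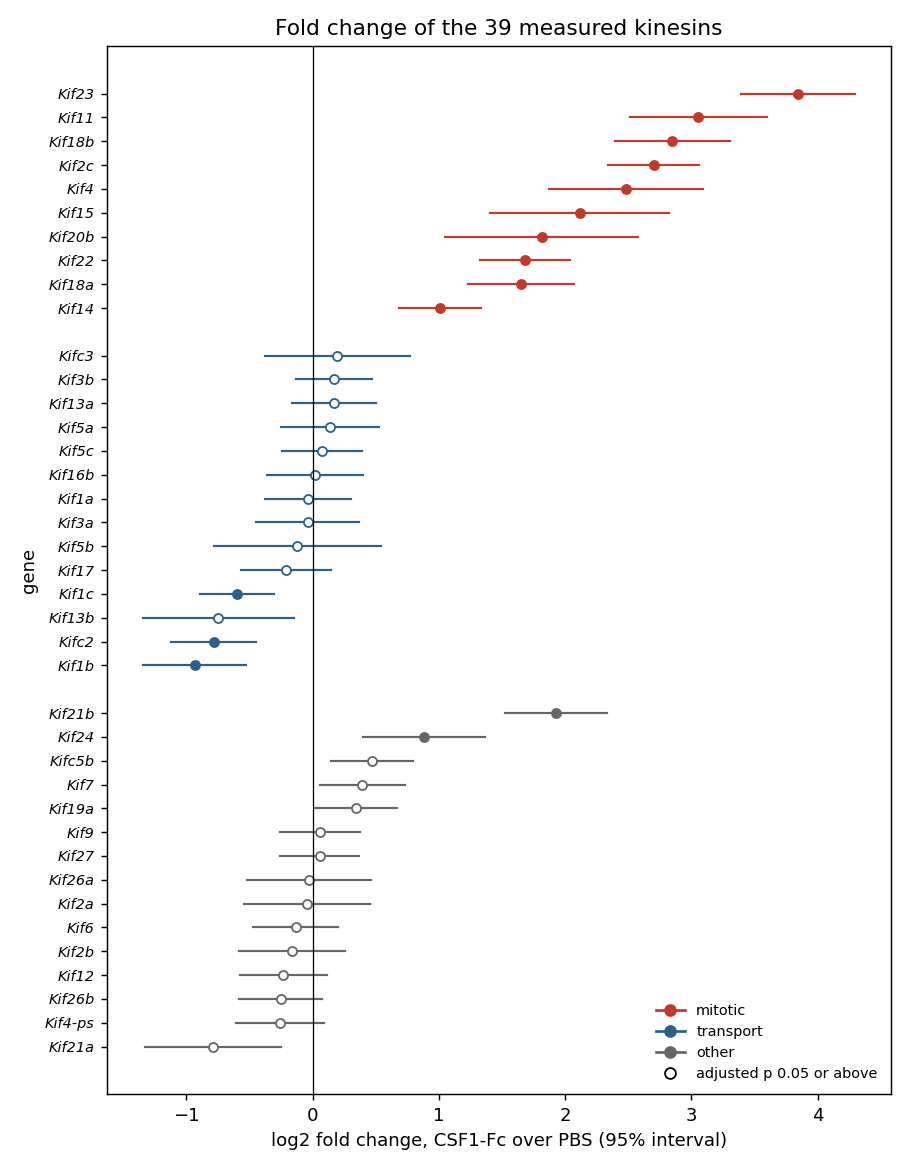
Log2 fold change (CSF1-Fc over PBS, x axis) of each of the 39 kinesins (y axis), with its 95% interval from limma; filled points passed an adjusted p of 0.05. The 10 mitotic kinesins lie between 1.01 and 3.84, while the 14 transport kinesins lie between -0.93 and 0.20.

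The plot of fold changes by class shows little overlap between the mitotic group and the rest of the 39 kinesins. The lowest bound of any mitotic interval was 0.68 and the highest bound of any transport interval was 0.77. Only Kif21b, with 1.93, lay within the range of the mitotic members from outside that group. In each liver, the mean log2 intensity of the mitotic class minus that of the transport class was 0.53, 0.34 and 0.68 in CSF1-Fc livers, against -1.93 and -2.07 in PBS livers. The difference between the medians of the classes was 2.34.

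Among the kinesins that build the spindle, Kif11 is the bipolar motor that slides antiparallel microtubules and drives the poles apart. Its log2 intensity was 8.13, 7.80 and 8.54 in CSF1-Fc livers, against 5.06 and 5.13 in PBS livers. The lowest CSF1-Fc liver was well above both PBS livers, which were nearly alike. The log2 fold change was 3.06 ± 0.22 (SE), or 8.31-fold, with an adjusted p of 0.000617.

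Kif15, a motor that backs up Kif11 in holding the poles apart, had 6.62, 6.19 and 7.15 in CSF1-Fc livers, against 4.74 and 4.34 in PBS livers. The groups did not overlap, but both were more scattered than for most mitotic kinesins. Its log2 fold change was 2.11 ± 0.29, or 4.33-fold (limma, adjusted p = 0.0077), and the call was lost without PBS replicate 2 (adjusted p = 0.0715).

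Kif18b works at the plus ends of the spindle's outer, astral microtubules and shortens them. It had 7.11, 6.84 and 7.36 in CSF1-Fc livers, against 4.14 and 4.38 in PBS livers. All CSF1-Fc livers were clearly above the dim PBS values, and the log2 fold change was 2.85 ± 0.19, or 7.19-fold (limma, adjusted p = 0.000465).

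The next group handles chromosomes. Kif2c does not walk but takes microtubules apart at their ends, and at the centromere it releases wrongly attached chromosomes. Its log2 intensity was 6.97, 6.62 and 6.84 in CSF1-Fc livers, against 4.08 and 4.14 in PBS livers. Both groups were tight, and Kif2c was the one mitotic kinesin whose highest CSF1-Fc value was not in replicate 3. The log2 fold change was 2.70 ± 0.15, or 6.51-fold (limma, adjusted p = 0.000387).

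Kif18a, which dampens the swing of chromosomes at the metaphase plate, had 5.57, 5.35 and 5.85 in CSF1-Fc livers, against 3.90 and 3.97 in PBS livers. The groups were well apart, although PBS livers were dim and CSF1-Fc livers only moderately bright. Its log2 fold change was 1.65 ± 0.17, or 3.14-fold (limma, adjusted p = 0.0024).

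Kif22 and Kif4 are chromokinesins, motors that bind chromosomes directly. Kif22, which pushes chromosome arms away from the poles, had 6.34, 6.13 and 6.44 in CSF1-Fc livers, against 4.69 and 4.55 in PBS livers. The 3 CSF1-Fc livers were close together and far above PBS livers. The log2 fold change was 1.68 ± 0.15, or 3.21-fold (limma, adjusted p = 0.00113).

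Kif4, which also carries the bundling protein Prc1 to the midzone of the spindle, had 6.00, 5.60 and 6.43 in CSF1-Fc livers, against 3.41 and 3.65 in PBS livers. Its PBS mean of 3.53 was dim, and every CSF1-Fc liver lay well above both PBS livers. The log2 fold change was 2.48 ± 0.25, or 5.58-fold (limma, adjusted p = 0.00198). The pseudogene Kif4-ps, counted among the other kinesins, was dim in both groups and had a log2 fold change of -0.26 (adjusted p = 0.351).

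The kinesins of cytokinesis held both the largest and the smallest mitotic change. Kif23 is the motor subunit of centralspindlin, the complex that bundles midzone microtubules and positions the cleavage furrow. It had 8.69, 8.48 and 9.02 in CSF1-Fc livers, against 4.96 and 4.82 in PBS livers. The values of the groups were far apart and each group was tight, with 8.73 ± 0.28 in CSF1-Fc livers and 4.89 ± 0.10 in PBS livers (SD, n = 3 and 2). The log2 fold change of 3.84 ± 0.19, or 14.3-fold, was the largest of the 39 kinesins (limma, adjusted p = 0.000357).

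Kif20b, a motor of the midbody needed for the final cut between daughter cells, had 5.26, 5.01 and 6.11 in CSF1-Fc livers, against 3.64 and 3.65 in PBS livers. CSF1-Fc replicate 3 stood well above the other CSF1-Fc livers, whose spread was the widest in the mitotic class, and the PBS livers were almost identical. Its log2 fold change was 1.81 ± 0.32, or 3.51-fold (limma, adjusted p = 0.0189). The call was lost without CSF1-Fc replicate 1 (adjusted p = 0.0588), PBS replicate 1 (0.108) or PBS replicate 2 (0.12), and also with 16 added to the intensities (0.0759).

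Kif14, which brings citron kinase to the midbody, had 4.95, 4.84 and 5.08 in CSF1-Fc livers, against 3.99 and 3.91 in PBS livers. The groups did not overlap but both had means in the dim range, so no fold is given. Its log2 difference was 1.01 ± 0.13 (limma, adjusted p = 0.00671), and the call was lost without PBS replicate 1 (adjusted p = 0.0547) or PBS replicate 2 (0.0775).

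**Figure D2:**
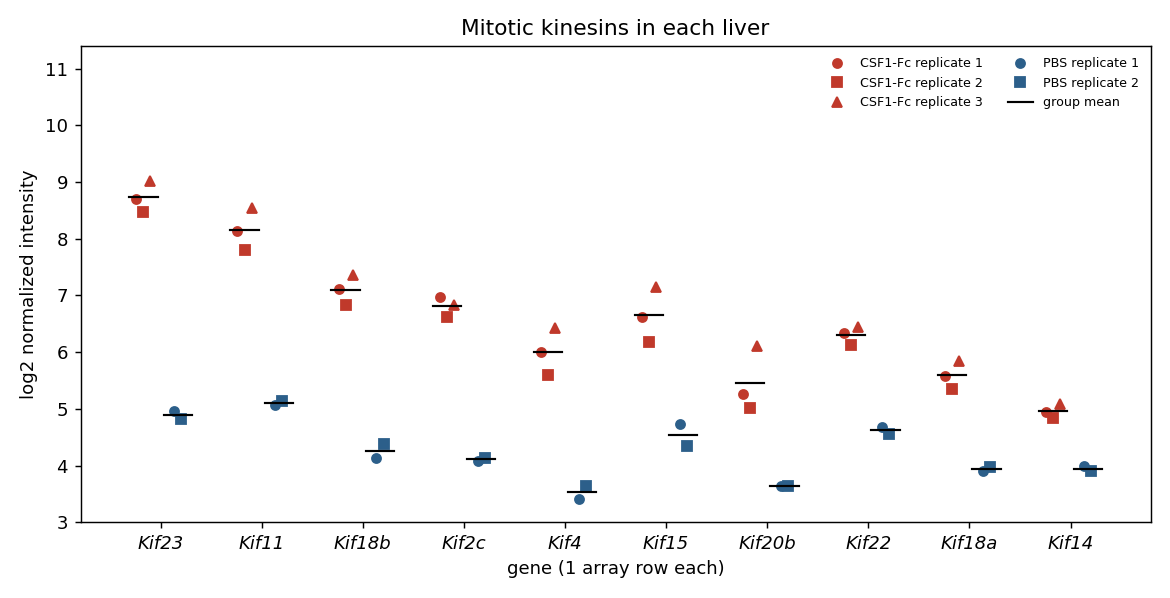
Log2 normalized intensity (y axis) of the 10 mitotic kinesins (x axis) in each of 3 CSF1-Fc livers (red) and 2 PBS livers (blue), with group means as lines. For all 10 genes the CSF1-Fc points lie above the PBS points, and CSF1-Fc replicate 2 is the lowest CSF1-Fc liver.

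The plot of mitotic kinesins by liver also shows that the CSF1-Fc livers kept nearly the same order from gene to gene. Replicate 2 was the lowest CSF1-Fc liver for 10 of 10 mitotic kinesins and replicate 3 the highest for 9 of 10. Both held at once for 9 of 10 mitotic kinesins, 6 of 14 transport kinesins and 24.0% of all named genes, and also for 20 of 30 secreted liver proteins. Summed hepatocyte markers were 37341, 37298 and 41688 in CSF1-Fc replicates 1, 2 and 3, and summed macrophage markers were 15427, 14615 and 14805. Cholangiocyte, sinusoidal endothelium and stellate cell sums were also lowest in replicate 2 and highest in replicate 3. So was the median of all rows, at 4.98, 4.96 and 5.05 on the log2 scale. Other lists had another order, such as Kupffer cell markers with 15090, 15237 and 14699. The source of this order was not tested. The genes share their livers and arrays, so these orders are not independent of each other.

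In PBS livers 9 of 10 mitotic kinesins had a dim mean, all but Kif11, whereas in CSF1-Fc livers only Kif14 did. The fold changes of the 9 therefore start from values near the lower end of the array's range. With 16 added to every intensity, which damps low values, the difference between the class medians was 1.58. Between PBS livers, 5 of the 10 mitotic kinesins differed by less than 0.1 on the log2 scale. Without CSF1-Fc replicate 1, PBS replicate 1 or PBS replicate 2, the call held for 9, 8 and 7 of the 10, and all 10 differences stayed positive. Without limma's moderation of the variance 3 of 10 were called (Kif23, Kif2c and Kif18b), in a fit with 3 residual degrees of freedom.

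Among the transport kinesins, kinesin-1 is the general carrier of vesicles and mitochondria, and Kif5b is its heavy chain in most tissues. Kif5b had 8.25, 7.78 and 8.71 in CSF1-Fc livers, against 8.23 and 8.50 in PBS livers. The groups overlapped completely, with the lowest and the highest value both in CSF1-Fc livers. The log2 difference was -0.12 ± 0.27 (limma, adjusted p = 0.85) with a 95% interval of -0.78 to 0.54, and its sign turned without CSF1-Fc replicate 2 (0.11), without PBS replicate 2 (0.02) and with centring on secreted proteins (0.10). The neuronal heavy chains Kif5a and Kif5c were dim in both groups, with log2 differences of 0.14 and 0.07.

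The 3 transport kinesins that fell were Kif1b, Kif1c and Kifc2. Kif1b, a kinesin-3 motor known from neurons as a carrier of mitochondria and synaptic vesicle precursors, had 8.37, 8.45 and 8.78 in CSF1-Fc livers, against 9.38 and 9.56 in PBS livers. Every CSF1-Fc liver was below both PBS livers. Its log2 fold change was -0.93 ± 0.17, a level 1.91-fold higher in PBS livers (limma, adjusted p = 0.0211). The call was lost without CSF1-Fc replicate 1 (adjusted p = 0.0859), PBS replicate 1 (0.0938) or PBS replicate 2 (0.171).

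Kif1c, a close relative that carries vesicles, had 7.69, 7.76 and 7.79 in CSF1-Fc livers, against 8.33 and 8.36 in PBS livers. Both groups were very tight and did not overlap, and the log2 fold change was -0.60 ± 0.12, 1.52-fold higher in PBS livers (limma, adjusted p = 0.0315). A further row of Kif1c gave -0.57 (adjusted p = 0.0491). The call of the brighter row was lost without CSF1-Fc replicate 1 (adjusted p = 0.13), CSF1-Fc replicate 2 (0.0603), PBS replicate 1 (0.172) or PBS replicate 2 (0.22), and with centring on secreted proteins (0.242).

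Kifc2, a kinesin of the C-terminal motor type described in neurons, had 4.91, 4.77 and 5.01 in CSF1-Fc livers, against 5.60 and 5.76 in PBS livers. The groups did not overlap, with CSF1-Fc livers at the dim border. Its log2 fold change was -0.78 ± 0.14, 1.72-fold higher in PBS livers (limma, adjusted p = 0.0201). That call was lost without CSF1-Fc replicate 1 (adjusted p = 0.0848), PBS replicate 1 (0.0939) or PBS replicate 2 (0.177), and with centring on secreted proteins (0.0832).

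Kif13b, a kinesin-3 that carries the scaffold protein Dlg1, had 7.04, 6.88 and 7.51 in CSF1-Fc livers, against 7.62 and 8.16 in PBS livers. The groups did not overlap, but the highest CSF1-Fc liver and the lower PBS liver were close. The log2 difference was -0.75 ± 0.25 and did not pass (limma, adjusted p = 0.133). It passed with only rows of 1 symbol tested (adjusted p = 0.0472), with the mean over rows (0.0426) and with array weights (0.0269), and was -0.47 without PBS replicate 2 (adjusted p = 0.566). In all, 5 of 14 transport kinesins had every CSF1-Fc liver below both PBS livers, where 29.3% of named genes did.

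The remaining transport kinesins differed little in either direction. Kif3a and Kif3b, the paired motors of kinesin-2 that build cilia, had log2 differences of -0.04 (adjusted p = 0.927) and 0.17 (adjusted p = 0.486). Kif3b was the 1 transport kinesin with every CSF1-Fc liver above both PBS livers. Kif13a, Kif16b and Kifc3 gave 0.17, 0.02 and 0.20, and the neuronal motors Kif1a and Kif17, dim in both groups, gave -0.04 and -0.21. At an unadjusted p below 0.05 limma counted 0 transport kinesins higher and 4 lower, where 13.2% of named genes were higher and 14.5% lower at that threshold.

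**Figure D3:**
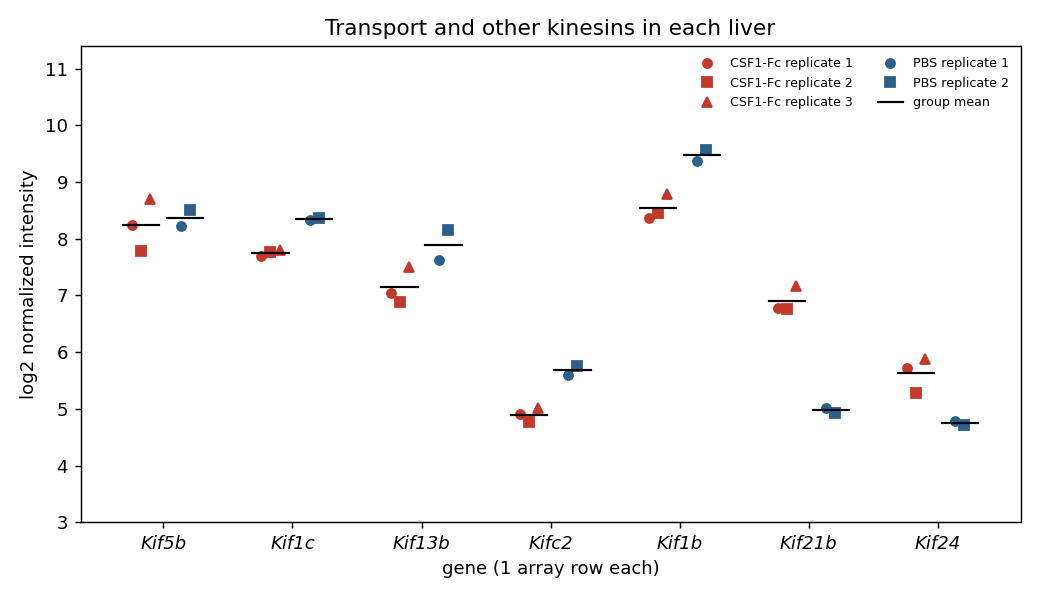
Log2 normalized intensity (y axis) of 5 transport kinesins and of Kif21b and Kif24 (x axis) in each of 3 CSF1-Fc livers (red) and 2 PBS livers (blue), with group means as lines. The groups overlap for Kif5b, lie lower in CSF1-Fc livers for Kif1c, Kif13b, Kifc2 and Kif1b, and lie higher for Kif21b and Kif24.

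Of the kinesins in neither class, Kif21b stood out, as the plot of transport and other kinesins by liver shows. It is a kinesin-4 motor that slows microtubule growth and is best known from neurons and lymphocytes. Kif21b had 6.78, 6.76 and 7.17 in CSF1-Fc livers, against 5.02 and 4.93 in PBS livers. The CSF1-Fc livers were all well above the PBS livers, which lay at the dim border. Its log2 fold change was 1.93 ± 0.17, or 3.81-fold (limma, adjusted p = 0.00107), and the call held with each liver left out but not without moderation (adjusted p = 0.0572). Of the lymphocyte markers, 3 of 5 for B cells, 1 of 5 for T cells and 0 of 5 for NK cells were called higher. Over all named genes 8.34% were called higher. Summed B cell intensities were 358 to 396 in CSF1-Fc livers and 134 to 142 in PBS livers. Pax5 and Cr2 of the B cell list and Cd3d and Cd8a of the T cell list were dim on every array. So were 4 of the 5 NK cell markers. All 10 macrophage markers were called higher as well. The part of any of these cells in the Kif21b result was not tested.

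Its closest relative Kif21a went the other way, with a log2 difference of -0.79 ± 0.22 that did not pass (limma, adjusted p = 0.0896). Every CSF1-Fc liver was below both PBS livers for Kif21a, which passed without CSF1-Fc replicate 3 (-0.99, adjusted p = 0.0166).

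Kif24, a kinesin of the depolymerase family that sits at the mother centriole and restrains cilium assembly, had 5.71, 5.28 and 5.88 in CSF1-Fc livers, against 4.78 and 4.71 in PBS livers. The groups did not overlap, and replicate 2 was again the lowest CSF1-Fc liver. The log2 fold change was 0.88 ± 0.20, or 1.84-fold, just past the threshold (limma, adjusted p = 0.0469). It no longer passed without CSF1-Fc replicate 1 (adjusted p = 0.158), CSF1-Fc replicate 3 (0.0678), PBS replicate 1 (0.183) or PBS replicate 2 (0.251), and with 16 added (0.0781) or a variance trend (0.0591).

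The other 12 ranged from -0.26 to 0.47. Kifc5b, a close copy of the spindle motor Kifc1 whose probes may share signal with it, gave 0.47 (adjusted p = 0.0898), and Kif7, a regulator of Hedgehog signalling in the cilium, gave 0.39 (adjusted p = 0.154) and was dim in both groups. Kif2a, a depolymerase related to Kif2c that also works outside mitosis, overlapped between groups with a log2 difference of -0.04 and a 95% interval of -0.54 to 0.46. Kif19a gave 0.35 (adjusted p = 0.188). Kif6, Kif9, Kif12, Kif26a, Kif26b, Kif27 and Kif2b were dim in both groups, with log2 differences between -0.25 and 0.06. In the class of other kinesins limma counted 5 of 15 higher and 1 of 15 lower at an unadjusted p below 0.05, where 13.2% of named genes were higher and 14.5% lower.

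The further rows of the same genes did not always follow the brightest. A second row of Kif11 gave 0.65 (adjusted p = 0.149) and one of Kif18b gave 0.12 (adjusted p = 0.643), both from lower intensities, whereas the rows of Kif1c moved alike. Rows of Kif26b, Kif4-ps and Kif6 gave -0.33, 0.12 and -0.01, and Kif7 had a pair of further rows at -0.27 and 0.13. Averaging all rows of a gene brought the difference between class medians to 1.87.

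The proteins that work with each class were then examined as lists. Of 21 partners of the mitotic kinesins, 19 were called higher, 0 lower and 2 did not pass, with a median log2 fold change of 2.70. The list includes Cenpe, itself a kinesin motor, whose symbol the rule used here does not match. Over all named genes 8.34% were called higher and 3.95% lower. The kinases Aurkb and Plk1, which control chromosome attachment and cytokinesis, had 3.91 and 3.62. Anln, a scaffold of the cleavage furrow, had 3.59, and Ckap2, a spindle protein, had 3.17. Racgap1, the partner of Kif23 in centralspindlin, also had 3.17. Those that did not pass were Numa1, a spindle pole protein (-0.19, adjusted p = 0.613), and Mapre1, a plus-end protein (0.43, adjusted p = 0.197).

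Against 8.34% of named genes, 12 of 12 proliferation markers outside the kinesins were called higher, with a median of 3.22. Among them Ccna2 and Ccnb2, cyclins of the later cell cycle, had log2 fold changes of 4.23 and 4.06, Mki67 had 4.11 and Top2a, which untangles sister chromosomes, had 3.91. Racgap1, Numa1 and Mapre1 were picked out after their values were seen.

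Of 13 cargo and adaptor partners of the transport kinesins, 0 were called higher, 1 was called lower and 12 did not pass, with a median of -0.11. The 1 that fell was Klc4, a light chain of kinesin-1 (-0.70, limma adjusted p = 0.0382). The list for dynein and dynactin, the motor that walks the opposite way, also holds Pafah1b1, Nde1 and Ndel1, which regulate dynein. Its 19 measured genes had a median of 0.02, with 1 higher and 18 not past. The 1 called higher was Dynll1, a small light chain also bound by many other proteins (1.05, limma adjusted p = 0.0367). Among 16 tubulins, the building blocks of the track, 3 were higher and 13 did not pass, with a median of 0.23. The risers were Tubb6 (2.37), Tubb5 (1.47) and Tuba1b (1.01). For all these counts the background is 8.34% of named genes called higher and 3.95% called lower. Secreted liver proteins, products of hepatocytes, had 0 of 30 called and a median of -0.17. For 19 of the 30 every CSF1-Fc liver was below both PBS livers, where 29.3% of named genes were.

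**Figure D4:**
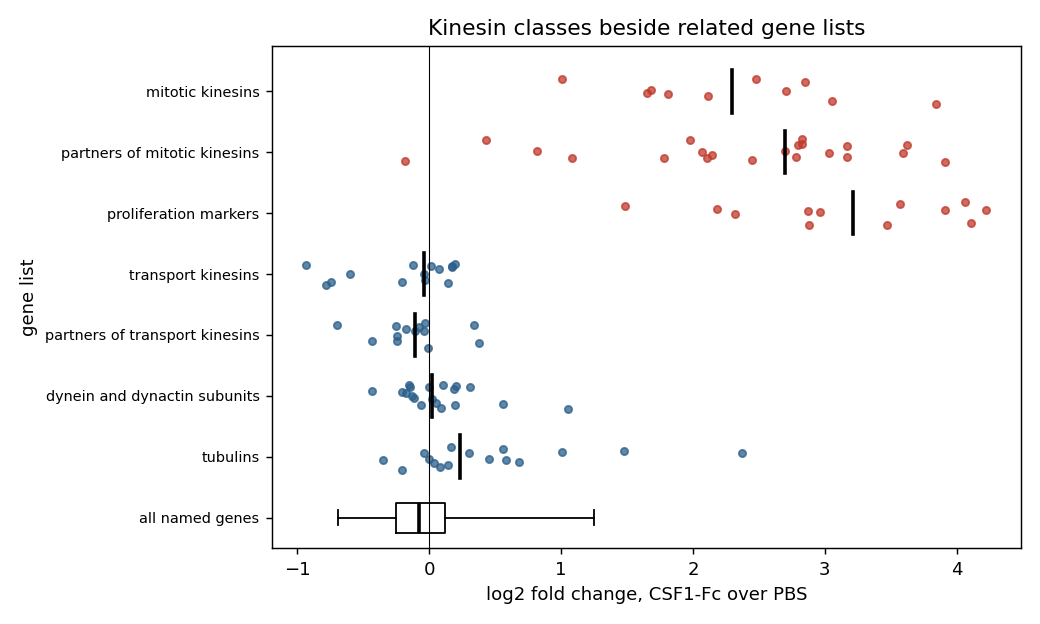
Log2 fold change (CSF1-Fc over PBS, x axis) of each gene in the kinesin classes and related lists (y axis), one point per gene, with list medians as bars; the box for all named genes spans the quartiles and its whiskers the middle 90% of genes. Medians are 2.30, 2.70 and 3.22 for mitotic kinesins, their partners and proliferation markers, and -0.04, -0.11 and 0.02 for transport kinesins, their partners and dynein and dynactin.

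The plot of lists sets the mitotic kinesins beside other genes of the cell cycle and the transport kinesins beside the rest of the transport machinery. The lists were compared by their counts and medians only. All come from the same 5 arrays, so agreement between lists is not independent evidence.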

How the data were processed

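Total RNA from 3 CSF1-Fc and 2 PBS livers was amplified, biotin labelled and hybridised to Affymetrix Mouse Gene 1.1 ST arrays. The authors deposited 1 table of normalized intensity on a linear scale. The sources name Affymetrix Expression Console 1.1 for quality control. No source used here says how background was corrected, probes summarised or arrays normalized. The labels and the study's methods name different RNA reagents. Genes were taken from the platform's annotation, in which 21218 of 35556 rows carry 1 symbol, 1881 several and 12457 are unnamed here. The Entrez IDs of 39 of 39 kinesins led to the same symbol in RefSeq.

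Intensities were converted to log2 and analysed in R 4.3.3 by the lmFit and eBayes functions of limma 3.58.1, with 1 mean per treatment, the contrast CSF1-Fc minus PBS and Benjamini-Hochberg adjustment over all rows. The fit had 3 residual and 3.34 prior degrees of freedom. The brightest row of a gene was used. Values per liver are given for mitotic kinesins, for every kinesin past the threshold and for the 4 transport kinesins of highest mean level. From other lists, up to 4 genes of largest change past the threshold were named. The classes, lists and rule were chosen with earlier results of these data known. Alternatives changed the scaling, low values, rows, variance model, array weights, threshold, class borders and livers used. The labels name separate liver samples, and the study's legend describes each as an individual mouse. That legend gives n = 3, whereas 2 PBS arrays are labelled here. Arrays have no read depth, and their number limits the precision.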

Additional observations from a re-analysis of the deposited data

How the results depend on the processing

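The count of 10 mitotic kinesins called higher became 3 without variance moderation and 9 to 10 with a CSF1-Fc liver left out. It was 9 with 16 added or at an adjusted p of 0.01, and 7 with dim rows left out, where only 7 were tested. Wider class borders gave 11 of 14. With a PBS liver left out, all 10 differences stayed positive. The 3 transport kinesins called lower became 1 with centring on secreted proteins, without moderation or with a replicate block, 0 at an adjusted p of 0.01, 4 with only rows of 1 symbol, the mean over rows or array weights, where Kif13b passed, and 0 to 3 with a liver left out. The 2 other kinesins called higher became 1 with 16 added, a variance trend, the replicate block, a threshold of 0.01 or wider class borders, 0 without moderation, 3 with only rows of 1 symbol, the mean over rows or a threshold of 0.1, 5 with array weights and 1 to 2 with a liver left out. The count of 0 other kinesins called lower became 1 with only rows of 1 symbol, the mean over rows, array weights, the replicate block or a threshold of 0.1, and 0 to 1 with a liver left out; the gene was Kif21a. The mitotic minus transport difference of 2.34 was 2.78 with dim rows left out, 1.58 with 16 added, 1.87 with the mean over rows, 1.79 with wider class borders (Kif2a, Kif2b, Kif24 and Kifc5b counted as mitotic), and 2.17 to 2.46 with a liver left out. Kif5b, at -0.12, ranged from -0.35 to 0.11 with a liver left out, and turned to 0.10 with centring on secreted proteins and to 0.11 and 0.02 without CSF1-Fc replicate 2 and PBS replicate 2.

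Over the whole table, 2052 rows higher became 550 without moderation, 3416 with array weights, 1255 at 0.01 and 1079 to 2053 with a liver left out. The 1133 rows lower became 492 with centring on secreted proteins, 1772 with only rows of 1 symbol, 127 without moderation, 3805 with array weights, 177 at 0.01, 2205 at 0.1 and 134 to 1768 with a liver left out. The cause of these shifts was not tested.

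Whether the replicate numbers pair the livers was not settled, and only 2 numbers are shared. Deviations of same-numbered livers from their group means correlated at -0.07 and -0.25. The deviations of the 2 PBS livers mirror each other, so these values are not independent and cannot decide it. With the replicate block, which drops the unpaired CSF1-Fc replicate 3 from the contrast, 10 mitotic kinesins were still called higher and the class difference was 2.17. Where a PBS liver was left out, the remaining one was assumed to vary like the CSF1-Fc livers. For the 17 kinesins given by liver, 3 of 269 alternative values reversed, all of Kif5b. Over all 39 kinesins, 11 changed sign under at least 1 alternative, 0 of them mitotic and 0 of them called. The dim PBS values of 9 mitotic kinesins limit the precision of their fold changes, and with only 3 and 2 livers no outlier test was run.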
